A study of Mus musculus with 8 samples.

Results

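KIT is the receptor tyrosine kinase that lets mast cells respond to stem cell factor (SCF). The messages of this receptor and of 9 signalling proteins that act at or just below it were followed in peritoneal mast cells (PMCs) and in PMC lines. The genes were taken by symbol from the deposited table: Kit, Grb2, Sos1, Pik3r1, Pik3cd, Inpp5d, Ptpn6, Ptpn11, Sh2b3 and Cbl. They are 10 of the 55359 genes listed there, and each symbol named a single row. For Kit and Pik3r1 the listed transcripts were used as well.

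RNA was sequenced from 8 untreated cultures of wild-type mice of the mixed strain C57BL/6x129/Sv. Of these, 6 were primary WT PMCs, 3 from female and 3 from male mice. The other 2 were the lines PMC-303 and PMC-306, which arose without a directed change from aged PMC cultures and have 1 library each. Primary WT PMCs grew in 20 ng/ml SCF and 15% FCS and both lines in 5 ng/ml SCF and 10% FCS, all with 30 ng/ml IL-3. The paper kept primary cultures for no longer than 8 weeks, whereas the lines were cultured long-term. The dose of the KIT ligand, the serum, the time in culture and the transformed state therefore changed between the same cultures. They cannot be told apart. The labels number the primary cultures of each sex as biological replicates. In the comparison of lines with primary cultures, the 2 lines served as replicates of each other, although each has 1 library. The p-values of that comparison measure the spread between primary cultures together with the difference between the lines. Those between the sexes measure the spread between primary cultures alone.

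When SCF binds, KIT molecules pair and phosphorylate each other on tyrosines, and SH2 domain proteins dock there. GRB2 brings SOS1, which loads RAS with GTP. The PI3K regulatory subunit p85, from Pik3r1, brings a catalytic subunit such as p110delta, from Pik3cd. The phosphatases SHIP1 (Inpp5d) and SHP-1 (Ptpn6), the adaptor LNK (Sh2b3) and the ubiquitin ligase CBL dampen the signal, whereas the phosphatase SHP-2 (Ptpn11) mostly helps the RAS branch. Mast cells depend on KIT for survival, and KIT on the surface is one of the marks by which they are recognised.

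Kit lies on chromosome 5 of GRCm39, at chr5:75735576-75817404 on the plus strand in GENCODE M39. Its coding transcripts Kit-201 and Kit-204 both have 21 exons and differ only at the end of exon 9, where Kit-201 holds 12 bases more, at chr5:75799807-75799818. These bases encode the GNNK residues in the part of the receptor just outside the membrane, so that Kit-201 is the GNNK+ and Kit-204 the GNNK- form. The sequences are shown because all reads that tell the 2 forms apart come from this place. In the genome (chr5:75799771-75799842) and in both spliced messages they read as follows, with the 12 bases in capitals; in the genome, the letters GT, with which most introns begin, follow directly on both exon ends:
Genome, plus strand: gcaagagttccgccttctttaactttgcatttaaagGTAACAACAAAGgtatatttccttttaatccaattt
Kit-201: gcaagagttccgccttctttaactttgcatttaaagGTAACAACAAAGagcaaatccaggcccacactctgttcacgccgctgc
Kit-204: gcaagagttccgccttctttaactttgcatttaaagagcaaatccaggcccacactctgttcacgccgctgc

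Further along, both messages carry the codons of the site to which p85 binds once its tyrosine is phosphorylated. Translation of the transcripts put this tyrosine at residue 719 of the GNNK- protein and at residue 723 of the GNNK+ protein, of 975 and 979 residues. The codons for this tyrosine and the 3 residues after it are in capitals:
Kit, p85 site: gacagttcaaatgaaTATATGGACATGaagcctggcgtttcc

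Markers of mast cells were read first to check the labels. All 10 genes of the mast cell list (Kit, Fcer1a, Ms4a2, Cpa3, Cma1, Hdc, Il1rl1, Srgn, Gata2 and Anpep) reached at least 1 CPM (CPM: counts scaled to libraries of equal size) in all 8 libraries. They summed to between 48427 and 76263 CPM in primary WT PMCs, 45311 CPM in the PMC-303 line and 41589 in PMC-306. Of the 6 macrophage genes, no more than 2 reached 1 CPM in a library, and their sum was 5.53 to 64.5 CPM in primary WT PMCs, 2.43 CPM in the PMC-303 line and 427 in PMC-306. In PMC-306 the gene Adgre1 made up 426 CPM of this sum and Lyz2 1.13 CPM, whereas the macrophage markers Csf1r, C1qa, C1qb and Cd14 had at most 0.0982 CPM. Whether Adgre1 has a part in the results below was not tested. The 4 B cell genes, 4 fibroblast or mesothelial genes and 4 eosinophil or neutrophil genes summed to at most 0.344 CPM in any library, and the 4 T cell genes to at most 3.22 CPM. The libraries held 15918758 to 24180226 counts. The library labelled PMC-303 held 4.20 CPM of 4 Y-linked genes, 1.25% of the mean of male primary cultures. PMC-306 held 332 CPM, 98.7% of that mean, and the female cultures held at most 0.0878 CPM. The lines thus differed from each other in these genes. As these are bulk samples, fewer cells with a message and less message per cell cannot be told apart.

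Compared per length, as TPM (the share of all transcripts, after division by length), Kit was the most abundant of the 10 messages in primary WT PMCs with 827 ± 114 TPM (SD, n = 6). Inpp5d followed with 265 TPM on average, Pik3cd with 107, Grb2 with 89.9, Ptpn6 with 67.6, Pik3r1 with 34.8, Sh2b3 with 31.3, Ptpn11 with 19.6, Cbl with 7.14 and Sos1 with 5.58 TPM. The ranges over the 6 cultures overlapped between the neighbours Pik3cd and Grb2, Pik3r1 and Sh2b3, and Cbl and Sos1. Pik3cd was above Grb2 in 5 of 6 cultures and Pik3r1 above Sh2b3 in 5 of 6, so that these neighbours did not differ beyond their spread. Counting from the highest TPM, Kit stood between rank 105 and rank 146 of all listed genes in primary WT PMCs. In PMC-303 it stood at rank 228 and in PMC-306 at rank 211.

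**Figure D1:**
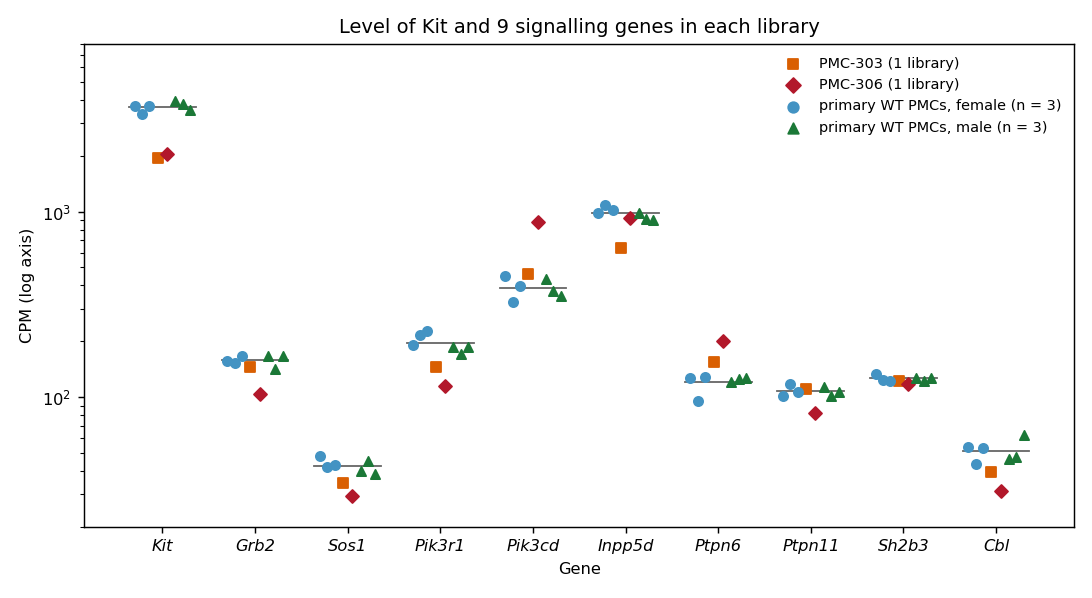
Level of Kit and the 9 other genes in each library, in CPM on a log axis. Each point is 1 library, and the grey line is the mean of the 6 primary cultures. Kit lies at 1946 and 2055 CPM in the lines, below all 6 primary cultures, whereas Pik3cd and Ptpn6 lie above them in both lines.

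The message of Kit itself was lower in both lines. The value of PMC-303 was 1946 CPM and that of PMC-306 was 2055 CPM. The female primary cultures 1 to 3 had 3699, 3359 and 3700 CPM and the male cultures 1 to 3 had 3932, 3808 and 3547 CPM. Both lines lay far below the lowest primary culture, and the lines differed from each other by only 0.08 on the log2 scale. PMC-303 reached 53.0% and PMC-306 55.9% of the primary mean of 3674 ± 201 CPM (SD, n = 6). These shares describe the message, and the amount of receptor protein cannot be read from them. The paper, which stained KIT on the cell surface, writes of increased KIT expression in PMC-306. It also reports less surface KIT when PMC-306 was grown with the higher SCF and FCS of primary cultures. How message and receptor relate in these cultures was not tested. Both lines were tested together against the 6 primary cultures with limma on log2(CPM + 0.1), with p-values adjusted over all 14529 genes tested. Kit fell by 0.88 on this scale (SE 0.12, 95% interval -1.15 to -0.61, adjusted p = 0.000886). The fall kept to between -0.91 and -0.84 when any 1 library was left out, with adjusted p-values of at most 0.00822.

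Of the 10 genes, 2 were called higher and 4 lower in the lines at an adjusted p under 0.05. Among all genes tested, 18.3% were called higher and 15.5% lower. The same 2 genes, Ptpn6 and Pik3cd, were the ones above all 6 primary cultures in both lines, which held for 23.0% of all genes tested. The 4 genes below all 6 in both lines were Kit, Pik3r1, Sos1 and Cbl, and 20.1% of all genes tested lay so. The median log2 difference of the 10 genes was -0.36, against -0.01 over all genes tested. Scaling by total counts moved the median of all genes by 0.11 and the use of TPM by 0.14. The share of higher genes among those called was 54.2%, against 67.2% with total counts and 70.8% with TPM. Kit fell by 0.77 with total counts and by 0.74 with TPM, before that shift was taken off. With total counts 2 of the 10 genes were called higher and 2 lower, and with TPM 1 higher and 2 lower.

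**Figure D2:**
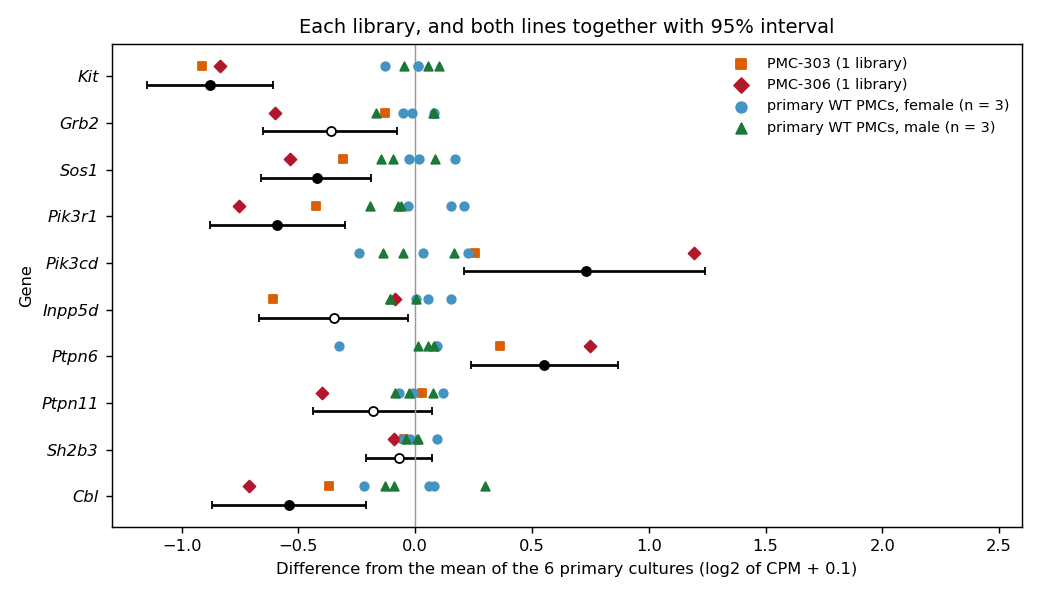
Difference of each library from the mean of the 6 primary cultures, as log2 of CPM + 0.1, for the 10 genes. Black circles with bars are both lines together with the 95% interval of limma, filled where the adjusted p is under 0.05. Kit lies at -0.88, and in PMC-306 Pik3cd lies at 1.19, away from PMC-303 at 0.26.

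GRB2 and SOS1 form the bridge from the receptor to RAS. Sos1 had 34.4 CPM in the PMC-303 line and 29.3 in PMC-306. In primary WT PMCs it ranged from 38.4 to 48.0 CPM with a median of 42.4 CPM. The lines did not overlap with the primary cultures, and Sos1 fell by 0.42 on the log2 scale (SE 0.10, adjusted p = 0.0143 by limma). With TPM the difference was -0.26 (adjusted p = 0.393), and without PMC-306 it was -0.31 (adjusted p = 0.113). Grb2 had 145 CPM in PMC-303, which lay among the primary cultures (141 to 167 CPM, median 161), and 104 CPM in PMC-306, which lay below them. Its difference of -0.36 (SE 0.12) did not pass the threshold with both lines (adjusted p = 0.0514). Without PMC-303 it was -0.60 (adjusted p = 0.0064) and without male culture 2 it was -0.40 (adjusted p = 0.0472).

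In CPM the PI3K pair moved in opposite directions, more so in PMC-306. In TPM, PMC-303 had 28.5 of Pik3r1, inside the primary range of 26.6 to 41. It had 124 TPM of Pik3cd, where the highest primary culture also had 124. Pik3r1, which encodes the p85alpha regulatory subunit that docks on KIT, had 145 CPM in the PMC-303 line and 115 in PMC-306, against 170 to 226 CPM (median 189) in primary WT PMCs. Both lines lay below every primary culture, and Pik3r1 fell by 0.59 on the log2 scale (SE 0.13, 95% interval -0.88 to -0.30, adjusted p = 0.0079 by limma). The difference was -0.43 without PMC-306 (adjusted p = 0.0707) and also -0.43 with TPM (adjusted p = 0.116). Pik3cd, the p110delta catalytic subunit of leukocytes, had 461 CPM in the PMC-303 line and 882 in PMC-306. Primary WT PMCs had 327 to 451 CPM with a median of 384 CPM, so that PMC-303 lay just above the highest of them and PMC-306 far above. For both lines the difference was 0.73 (SE 0.22, 95% interval 0.21 to 1.24, adjusted p = 0.0362). This call rested on PMC-306, since without it the difference was 0.26 (adjusted p = 0.313). It was also lost without female culture 2 (0.68, adjusted p = 0.0596), female culture 3 (0.73, adjusted p = 0.0558), male culture 2 (0.72, adjusted p = 0.0645) and male culture 3 (0.70, adjusted p = 0.0622). TPM (0.72, adjusted p = 0.0742), no filter (0.73, adjusted p = 0.0523) and no variance trend (0.73, adjusted p = 0.0547) lost it as well. Against female or male cultures alone the difference was 0.72 (adjusted p = 0.17) or 0.73 (adjusted p = 0.133). Without PMC-303 it was 1.19 with an adjusted p of 0.0024.

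The ratio of Pik3cd to Pik3r1 within a library, both in TPM, does not depend on the scaling of libraries. It was looked at after the values of both genes were seen, so it is given with no test. The ratio was 3.34, 2.26 and 3.01 in female cultures 1 to 3 and 3.65, 3.42 and 2.89 in male cultures 1 to 3. It was 4.34 in PMC-303 and 10.8 in PMC-306. Both lines lay above all 6 primary cultures, whose mean was 3.10 ± 0.495 (SD, n = 6), and PMC-306 lay far above PMC-303.

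**Figure D3:**
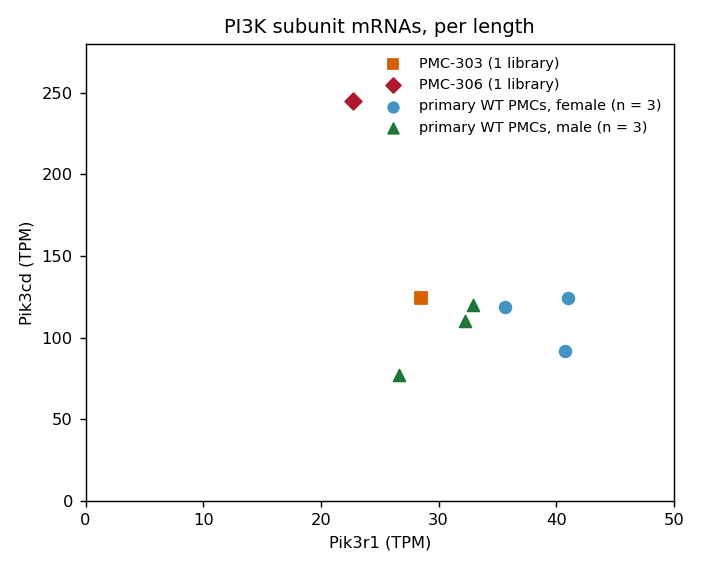
Pik3cd against Pik3r1 in TPM for the 8 libraries, with each point 1 library. PMC-306 lies alone at 22.7 TPM of Pik3r1 and 245 TPM of Pik3cd, whereas PMC-303 lies at 28.5 and 124 TPM, near the edge of the primary cultures.

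SHIP1, SHP-1 and SHP-2 are SH2 domain phosphatases, and their messages did not move together. Ptpn6 (SHP-1) had 154 CPM in the PMC-303 line and 201 in PMC-306. In primary WT PMCs it ranged from 95.5 to 128 CPM with a median of 126 CPM, so that both lines lay above all of them. Ptpn6 rose by 0.55 on the log2 scale (SE 0.14, 95% interval 0.24 to 0.87, adjusted p = 0.0149 by limma), and without PMC-306 the difference was 0.36 (adjusted p = 0.131). Ptpn11 (SHP-2) had 110 CPM in PMC-303, among the primary cultures (101 to 117 CPM, median 106), and 81.6 CPM in PMC-306, below them. For both lines its difference was -0.18 (SE 0.11, adjusted p = 0.236). It was -0.40 without PMC-303 (adjusted p = 0.0199) and 0.03 without PMC-306 (adjusted p = 0.849).

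Inpp5d (SHIP1), which removes the 5-phosphate from the lipid that PI3K makes, showed the reverse pattern between the lines. It had 640 CPM in PMC-303, below all primary cultures (906 to 1086 CPM, median 979), and 920 CPM in PMC-306, among them. The difference for both lines was -0.35 (SE 0.14, adjusted p = 0.0868), and it was -0.61 without PMC-306 (adjusted p = 0.0112) and -0.09 without PMC-303. With 1 library per line, the difference between the lines could not be tested. Set against Kit in the same library, the TPM ratio of Kit to Ptpn6 was 4.96 in PMC-303 and 4.37 in PMC-306, below its range of 11.3 to 14.1 in primary WT PMCs. The ratio of Kit to Inpp5d was 2.54 in PMC-303, inside its primary range of 2.42 to 3.47, and 1.85 in PMC-306, below it. These ratios, too, were chosen after the values were seen and carry no test.

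LNK and CBL limit KIT signalling, LNK as an SH2 adaptor at the receptor and CBL by marking active KIT for uptake and breakdown. Sh2b3 (LNK) hardly differed between libraries, with 122 CPM in PMC-303, 118 CPM in PMC-306 and 122 to 134 CPM (median 125) in primary WT PMCs. Its difference was -0.07 with a 95% interval of -0.21 to 0.07 (adjusted p = 0.416 by limma), and its sign turned to 0.04 with total counts and 0.06 with TPM. The TPM ratio of Kit to Sh2b3 was 14.1 in PMC-303 and 16.2 in PMC-306, against 23.5 to 29.2 in primary WT PMCs. Cbl had 39.3 CPM in the PMC-303 line and 31.0 in PMC-306, below the range of 43.6 to 62.4 CPM (median 50.3) in primary WT PMCs. Cbl fell by 0.54 on the log2 scale (SE 0.15, adjusted p = 0.0215). Without PMC-306 the difference was -0.37 (adjusted p = 0.168), and with total counts it was -0.43 (adjusted p = 0.0519). The TPM ratio of Kit to Cbl was 92.2 in PMC-303 and 116 in PMC-306, inside the primary range of 87.1 to 145. The ratios to Sh2b3 and Cbl were likewise chosen after the values were seen and carry no test. As Sh2b3 hardly differed, its ratio mainly restates the fall of Kit.

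The member with the fewest reads was Sos1 in PMC-306 with 597 counts, where counting alone gives an error of 4.09%. The spread between primary cultures was small for Sh2b3 (3.64% of its mean) and Kit (5.46%) and largest for Cbl (13.2%) and Pik3cd (12.3%).

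Kit was then followed by transcript. Salmon, which splits reads between transcripts by likelihood, gave nearly all of the Kit count to Kit-201 and Kit-204. The 6 retained-intron transcripts together held 2.69% of the count in PMC-303, 4.14% in PMC-306 and 2.61% to 4.69% in primary WT PMCs. Of the Kit TPM, Kit-204 and Kit-201 held 47% and 41.2% in PMC-303 and 43.8% and 38.4% in PMC-306. In primary WT PMCs they held 43.2% to 53.5% and 33.4% to 36.9%, so that retained-intron transcripts weigh more in the TPM values. In PMC-303 Kit-204 (GNNK-) had 24567 and Kit-201 (GNNK+) 21444 counts, and in PMC-306 they had 21438 and 18672. Kit-204 was the larger in all 8 libraries. Its share of the sum of both forms was 53.4% in PMC-303 and 53.4% in PMC-306. The share was 54.2%, 60.9% and 57.1% in female cultures 1 to 3 and 57.2%, 55% and 61.3% in male cultures 1 to 3, with a mean of 57.6% ± 2.95 (SD, n = 6). The lines thus stood just below the lowest primary culture, by 0.797 percentage points. Scaled to library size, Kit-204 had 1011 CPM in PMC-303 and 1053 in PMC-306 against 1912 to 2184 CPM in primary WT PMCs. Kit-201 had 883 CPM in PMC-303 and 917 in PMC-306 against 1278 to 1647 CPM. Both forms therefore lay below all 6 primary cultures in both lines. Only reads across the 12 bases shown above or across the joint that lacks them separate the forms, so the shares carry an error that the files do not give, and they were not tested.

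**Figure D4:**
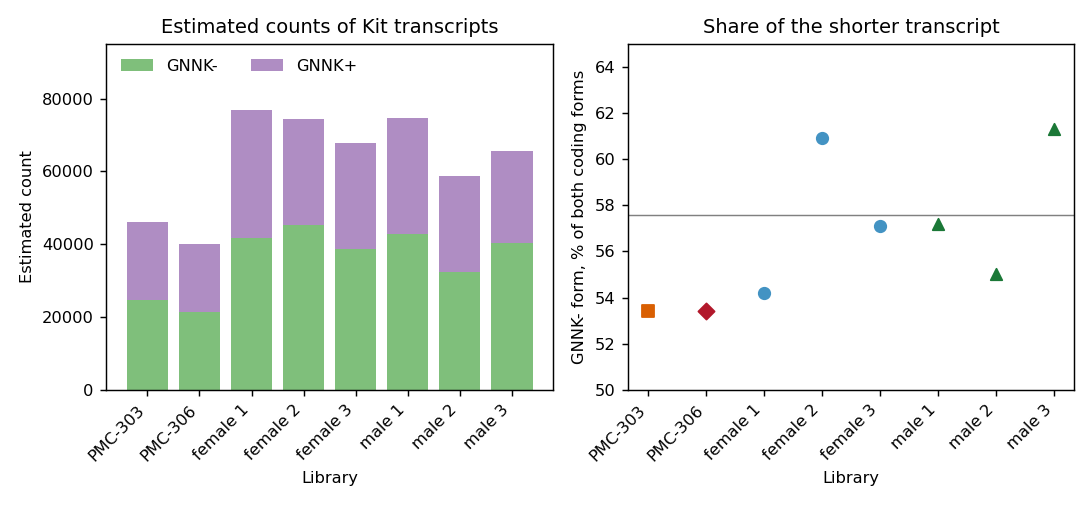
Left, estimated counts of Kit-204 (GNNK-) and Kit-201 (GNNK+), stacked for each library and not scaled for depth. Right, share of Kit-204 in both forms in percent, on an axis from 50 to 65, with the mean of the 6 primary cultures as a grey line. The square and the diamond are PMC-303 and PMC-306, both at 53.4%, circles are female and triangles male cultures.

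Pik3r1 gives several regulatory subunits from different starts on chromosome 13 (chr13:101817071-101904725, minus strand). Pik3r1-202 encodes p85alpha with 724 residues and Pik3r1-201 the shorter p55alpha with 454 residues. The first coding bases of both are shown with the start codon in capitals, because the forms differ in their first part and share the SH2 domains that bind KIT:
Pik3r1-202: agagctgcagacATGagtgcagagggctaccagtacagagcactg
Pik3r1-201: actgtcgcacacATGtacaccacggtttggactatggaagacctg
The p85alpha transcript held 95.5% of the Pik3r1 count in PMC-303, 91.7% in PMC-306 and 91.8% to 93.6% in primary WT PMCs. The p55alpha transcript held 0.201% in PMC-303, 3.97% in PMC-306 and 1.71% to 3.21% in primary WT PMCs. In PMC-303 a further 1.29% went to Pik3r1-205, a partial model that overlaps the start of Pik3r1-201, and the sum of both was 1.49% there against 1.71% to 3.21% in primary WT PMCs. As the p85alpha transcript held nearly all counts in every library, the CPM levels of Pik3r1 given above are chiefly those of p85alpha. Of the Pik3r1 TPM it held 75.3% in PMC-303, 74.5% in PMC-306 and 69.5% to 79.9% in primary WT PMCs. The TPM values and ratios of Pik3r1 therefore include more of the other transcripts.

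The other genes of the KIT pathway were read from the same fit, with a list of 73 genes in 8 roles. Of these, 69 had enough counts to be tested, 6 were called higher and 14 lower, and the median log2 difference was -0.07. Among all genes tested the shares were 18.3% and 15.5%, as given above. The ligand gene Kitl was not tested. It had 5 counts in PMC-306, 1 in PMC-303, 1 in male culture 3 and 0 in the other 5 cultures, so that apart from PMC-306 no library exceeded 3 counts (0.123 to 0.187 CPM).

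Of 10 cytoplasmic kinases, 2 were called lower by limma and the other 8 did not pass the threshold. The lower genes were Tec, a kinase with a lipid-binding domain, and Syk, the kinase of the IgE receptor pathway. Tec had 16.0 CPM in PMC-303, 10.2 CPM in PMC-306 and 19.0 to 24.5 CPM in primary WT PMCs, with a difference of -0.74 (adjusted p = 0.0115), and without PMC-306 of -0.42 (adjusted p = 0.088). Syk had 123 and 127 CPM in the lines against 183 to 203 CPM (difference -0.63, adjusted p = 0.000266). Lyn, a SRC family kinase bound by KIT, had 254 CPM in the PMC-303 line and 273 in PMC-306, within its primary range of 248 to 297 CPM, and its difference of -0.07 turned to 0.04 with total counts and with TPM.

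Of 12 adaptors and scaffolds tested, Shc1 was called higher and Gab2 and Lat2 lower. Shc1, which links receptors to GRB2, had 133 CPM in the PMC-303 line and 118 in PMC-306 against 74.7 to 98.2 CPM (difference 0.51, adjusted p = 0.00828). Without PMC-303 it was 0.43 (adjusted p = 0.0625). Gab2, the scaffold that brings more PI3K to KIT in mast cells, had 118 and 111 CPM against 137 to 199 CPM (difference -0.46, adjusted p = 0.029). Its call was lost without PMC-303 (-0.50, adjusted p = 0.0778), without PMC-306 (-0.41, adjusted p = 0.136) and without male culture 3 (-0.44, adjusted p = 0.0516). Lat2, a membrane adaptor of mast cells, had 551 and 745 CPM against 793 to 903 CPM (difference -0.40, adjusted p = 0.0283). Its call was lost without PMC-303 (-0.19, adjusted p = 0.242). It was also lost without female culture 1, male culture 1 or male culture 2 (-0.40 each, adjusted p = 0.053, 0.0513 and 0.0521).

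Of 15 PI3K and phosphoinositide genes, 2 were called higher and 2 lower. Pik3r6, a regulatory subunit of the G protein coupled PI3K gamma, had 183 CPM in the PMC-303 line and 162 in PMC-306 (difference 1.26, adjusted p = 0.0197). Its primary cultures ranged from 52.1 to 147 CPM with a median of 64.3 CPM. Its difference was 1.18 without PMC-303 (adjusted p = 0.0966) and 1.35 without PMC-306 (adjusted p = 0.0666). Pik3r2, which encodes p85beta and can stand in for p85alpha, was the other higher gene, with 9.63 and 10.2 CPM against 2.36 to 5.47 CPM (difference 1.26, adjusted p = 0.0165). It was 1.30 without PMC-303 (adjusted p = 0.0646) and 1.22 without PMC-306 (adjusted p = 0.0802). Pik3r3, the p55gamma subunit, had 18.8 CPM in the PMC-303 line and 11.1 in PMC-306 against 25.7 to 35.1 CPM (difference -1.12, adjusted p = 0.00276). The other catalytic subunits present at over 100 CPM, Pik3ca and Pik3cg, had differences of 0.09 and 0.14 (adjusted p = 0.487 and 0.252).

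Of 13 RAS and ERK genes, 3 were called higher, among them Nras and Rasa1, and 3 lower (Nf1, Araf and Braf). Both RAS-GTPase activating proteins of the list were among them, Rasa1 higher and Nf1 lower. Rasa1 had 103 CPM in the PMC-303 line and 113 in PMC-306 against 66.2 to 81.0 CPM (difference 0.51, adjusted p = 0.00303). Nf1, neurofibromin, had 14.1 and 11.2 CPM against 17.5 to 27.1 CPM (difference -0.76, adjusted p = 0.0086), and it was -0.59 without PMC-306 (adjusted p = 0.0713) and -0.41 with TPM (adjusted p = 0.314). The kinases Araf and Braf, which act below RAS, fell by 0.47 (adjusted p = 0.000963) and 0.42 (adjusted p = 0.00638). With TPM both calls were lost, with differences of -0.35 for Araf (adjusted p = 0.0773) and -0.20 for Braf (adjusted p = 0.426), and against female cultures alone Braf had an adjusted p of 0.0574.

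Of 4 STAT genes, Stat3 and Stat5b were called lower. Stat3 had 94.1 and 59.5 CPM against 102 to 145 CPM (difference -0.69, adjusted p = 0.027), and without PMC-306 it was -0.36 (adjusted p = 0.236) and without female culture 1 it was -0.67 (adjusted p = 0.0506). Stat5b, a main STAT of mast cells, had 129 and 105 CPM against 136 to 177 CPM (difference -0.39, adjusted p = 0.0321). Its call was lost without PMC-306 (-0.25, adjusted p = 0.236). It was also lost without female cultures 1 (-0.38, adjusted p = 0.0586) or 2 (-0.39, adjusted p = 0.0513) and without male culture 1 (-0.38, adjusted p = 0.0585).

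Of 9 negative regulators and endocytosis genes tested, 2 were called lower. Ubash3a, a phosphatase-like protein that binds CBL, had 5.35 CPM in the PMC-303 line and 3.63 in PMC-306 against 7.03 to 35.2 CPM. Its difference was -2.12 (adjusted p = 0.0154 by limma), and -1.85 without PMC-306. The call was lost with the voom weights of limma (-2.16, adjusted p = 0.0699) and against male cultures alone (-1.66, adjusted p = 0.0841). The receptor phosphatase Ptprj was the other, with 104 and 75.1 CPM against 119 to 141 CPM (difference -0.53, adjusted p = 0.00935), and without PMC-306 it was -0.30 (adjusted p = 0.063). Among 6 transcription factors that bind or control Kit, Lmo2 was called lower, with 27.0 and 34.4 CPM against 45.9 to 60.4 CPM (difference -0.82, adjusted p = 0.00304). Mitf and Gata2, which drive Kit in mast cells, had differences of 0.16 and 0.13 (adjusted p = 0.177 and 0.319). The calls of Syk, Pik3r3, Rasa1 and Lmo2 held in all 17 alternative settings. With TPM the calls of Gab2 (-0.30, adjusted p = 0.234), Lat2 (-0.32, adjusted p = 0.263), Stat3 (-0.56, adjusted p = 0.0888), Stat5b (-0.30, adjusted p = 0.281) and Ptprj (-0.40, adjusted p = 0.148) were lost as well.

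Female and male primary cultures were compared for the same 10 genes. By limma 0 of them passed an adjusted p of 0.05, where 6 of 13710 genes tested did (0.0438%). Kit had a mean of 3586 CPM in female and 3762 CPM in male cultures, a difference of -0.07 with a 95% interval of -0.41 to 0.27. At an unadjusted p, 1 of the 10 genes was under 0.05, as were 457 of all genes. This was Pik3r1, with 191 to 226 CPM in female and 170 to 187 CPM in male cultures (difference 0.22, adjusted p = 1).

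Over the 6 primary cultures, the log2 levels of Kit were most like those of Hs6st2 (Pearson r = 0.994), Isoc2a (0.990), Kbtbd3 (0.990), Nptn (0.986) and a gene listed as U1 (0.980), among 8575 genes whose mean there reached 10 CPM. These values are a description over 6 libraries of shared preparation but unlike depth, and Kit varied little between them. The table lists 59 genes under the name U1, between which reads may be split. In both lines Hs6st2, Isoc2a and Nptn lay inside their primary ranges, with 342 and 369 CPM against 321 to 419 CPM for Hs6st2. Kbtbd3 lay below its range of 8.83 to 11.6 CPM in PMC-303 (7.49 CPM) and inside it in PMC-306 (9.13 CPM). The gene listed as U1 had 39.1 CPM in PMC-303, inside its range of 8.04 to 44.0 CPM, and was at 0 in PMC-306.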

How the data were processed

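The 10 genes and all lists were chosen with earlier results of these data known. Per the labels and the study's methods, the authors prepared stranded total RNA libraries, trimmed reads with Trim Galore 0.6.7, aligned them to GRCm39 with STAR 2.7.9a and quantified with Salmon 1.5.2 (nf-core/rnaseq 3.5). The annotation release is not given in the sources used here. Deposited by the authors were Salmon's estimated counts of genes and transcripts, without normalization, and TPM. A spreadsheet program had rewritten 3.37% of gene count cells, including 28 of the 80 used for the 10 genes. Each rewritten count was set back to its only reading, and 99.7% of gene counts were then within 0.2 of their transcripts' sum. In 21.8% of gene TPM cells the place of the decimal point was open, and counts were used to choose it. In 10 of the 80 TPM cells of the 10 genes this choice differed from the default reading. As the deposited columns hold rewritten text, no count model was used. Instead, log2(CPM + 0.1) with TMM library sizes was tested with limma 3.58.1 in R 4.3.3, using a trend of variance on level and p-values adjusted after Benjamini and Hochberg. Genes needed about 10 counts in enough libraries and 15 in total. Where a line was left out, the remaining line was assumed to vary like the primary cultures. Named pathway genes are those with the largest rise and fall in each role among those called, with at least 1 CPM. Other pathway genes were named after their values were seen. The values of some pathway genes are not reported here. Gene models and transcript sequences come from GENCODE M39 on GRCm39, whose versions of the Kit transcripts are later than the deposited ones. Other work used Python 3.11.15 with pandas 2.3.3.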

Additional observations from a re-analysis of the deposited data

Results flagged for a closer look

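Among the 6 primary cultures, the highest and lowest values of a gene were compared with the nearest of the other values. The gap was taken as a share of the whole range. This was done for the 10 genes, Kitl and the pathway genes with the largest rise or fall in their role. The other pathway genes named above were not examined. Of 21 genes examined, 3 held a culture farther from the rest than the limit, and chance gives about 1.05. For Ptpn6 this was female culture 2 at 95.5 CPM, the nearest value being 121 CPM, and the rise of Ptpn6 in the lines was also called without this culture (0.49, adjusted p = 0.00997 by limma). For Pik3r6 it was female culture 3 at 147 CPM, the nearest value being 69.5 CPM. The gap was 0.782 of the range for Ptpn6 and 0.816 for Pik3r6. Kitl had 0.0525 CPM in male culture 3 from 1 count, and 0 in the other 5 primary cultures. With a single value above 0 the gap equals the whole range. Kitl therefore passes the limit at any level and should be left out when the count is set beside chance.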

How the results depend on the processing

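The fall of Kit was called in all 17 alternatives, between -0.91 and -0.74 on the log2 scale. Of 170 values of the 10 genes under alternatives, 139 kept direction and side of the threshold. With TPM 1 gene was called higher and 2 lower, with no filter 1 higher, without trend 1 higher, with total counts 2 lower, against female cultures alone 0 higher and 2 lower, and against male cultures alone 1 higher and 2 lower. Leaving out 1 library gave 0 to 2 genes higher and 2 to 6 lower, lowest without PMC-306. Sh2b3 turned to 0.04 with total counts and 0.06 with TPM, Lyn to 0.04 with both, and Ptpn11 to 0.03 without PMC-306, against -0.40 without PMC-303. The cause was not tested. Over all genes, 1327 were higher and 833 lower against female cultures alone, 1241 lower against male cultures alone and 980 lower with TPM, and leaving out 1 library gave 1943 to 2570 higher and 1598 to 2095 lower. Of pathway genes, 11 were higher with total counts, 2 against male cultures alone, and 5 lower with TPM, 6 against female and 7 against male cultures alone. Leaving out 1 library gave 3 (without PMC-303) to 9 higher and 8 (without PMC-306) to 18 lower. The Kit-204 share differed by less than the spread between cultures when taken from TPM. Female and male cultures share replicate numbers, and deviations of same-numbered cultures correlated at 0.405, -0.216 and 0.284. Differently numbered cultures were not correlated for comparison, so these values cannot decide whether the numbers pair the samples. With the replicate block 5 genes were called between sexes in place of 6, and 0 of the 10 genes.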
